A study of Homo sapiens with 4 samples.

Results

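Receptor tyrosine kinases and the ligands of the epidermal growth factor receptor (EGFR) were followed in PANC-1, a human pancreatic ductal adenocarcinoma cell line, and in PZT-2, a clone made from it in which the 3 isoforms of histone H2A.Z were knocked down. The genes were chosen by symbol as 3 ERBB receptors (EGFR, ERBB2 and ERBB3), 3 other receptors (MET, AXL and FGFR1) and 4 EGFR ligands (AREG, EREG, HBEGF and TGFA). This makes 10 of the 15221 genes in the count table. Counts were summed over the 28 RefSeq transcripts of these genes that had values there. The untransduced, wild-type PANC-1 cells (2 libraries) served as the control, and PZT-2 (2 libraries) carries lentiviral short hairpin RNAs against both H2A.Z genes, driven by the U6 promoter on a plasmid with puromycin resistance. Both lines were grown in the same serum-containing medium and harvested at passage 12 to 13. PZT-2 is 1 clone that was transduced and selected in puromycin, and the PANC-1 cells were not transduced. Effects of the knockdown, of transduction and selection, and of this clone therefore cannot be told apart. Libraries of cells with a control hairpin were not analysed here. The paper calls the 2 libraries of a line biological replicates, but the labels do not say whether they came from separate cultures. The p-values therefore set the difference between the lines only against the spread between these libraries, as fitted across all genes.

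Receptor tyrosine kinases span the plasma membrane and pass a signal inward when an extracellular ligand brings receptor chains together and their kinase domains phosphorylate each other. Adaptor proteins then bind the phosphorylated tails and feed RAS and phosphoinositide 3-kinase, and ubiquitination sends active receptors to the lysosome. The EGFR ligands are made as membrane-anchored precursors and become soluble when a protease of the ADAM family cuts them off. In pancreatic adenocarcinoma, EGFR and its ligands are known for their part in early tumour formation, and EGFR, MET and AXL have all been pursued as drug targets.

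The stretch just upstream of the start of 4 of the genes is shown because they include EREG and AREG, neighbours on chromosome 4 of which only EREG passed the test, HBEGF, the ligand with the highest level, and EGFR, their receptor. Each sequence runs 5′ to 3′ over the 110 bases before the start of the gene in RefSeq on GRCh38.p14, and capitals mark a TATA box, a GC box, a CCAAT box or the core of a cyclic AMP response element. The 4 windows lie at chr4:74365035-74365144 on the plus strand for EREG, chr4:74445026-74445135 on the plus strand for AREG, chr5:140346604-140346713 on the minus strand for HBEGF and chr7:55018907-55019016 on the plus strand for EGFR.
EREG: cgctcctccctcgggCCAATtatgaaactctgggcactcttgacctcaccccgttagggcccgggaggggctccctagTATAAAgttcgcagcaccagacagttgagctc
AREG: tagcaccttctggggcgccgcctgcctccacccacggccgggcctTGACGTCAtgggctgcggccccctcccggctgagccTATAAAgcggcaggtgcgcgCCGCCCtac
HBEGF: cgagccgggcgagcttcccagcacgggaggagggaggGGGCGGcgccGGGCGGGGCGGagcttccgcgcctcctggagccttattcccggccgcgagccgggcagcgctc
EGFR: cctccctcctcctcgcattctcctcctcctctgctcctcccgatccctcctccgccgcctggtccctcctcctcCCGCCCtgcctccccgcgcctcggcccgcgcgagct

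EREG and AREG both carried a TATA box (TATAAA), at 32 and 29 bases before the start, and HBEGF and EGFR had none. HBEGF had 5 GC boxes (GGGCGG) and EGFR 3 in the window of 250 bases before to 50 bases after the start, counting both strands, AREG had 1 and EREG none. AREG also had the palindrome TGACGTCA, which holds the core TGACGT once on each strand, and EREG had CCAAT boxes (CCAAT) at 95 and 196 bases before the start. Over 35116 RefSeq windows of 300 bases, 11.5% held TATAAA, 45.0% GGGCGG, 7.98% TGACGT and 34.6% CCAAT. Windows were matched for 8 of the 10 genes, and no AP-1 site (TGANTCA, held by 7.71% of all windows) was found in them except in ERBB2. A match of letters describes the sequence and not the binding of a factor.

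The 4 libraries held between 12861331 and 15717459 counts. Of the targeted genes, H2AFZ, which encodes H2A.Z.1, had 6389 and 6034 normalized counts in PANC-1 and 2212 and 2259 in PZT-2. Its log2 fold change (log2FC, always PZT-2 over PANC-1) was -1.47 (edgeR adjusted p = 6.23e-05). H2AFV, which encodes both H2A.Z.2 isoforms, had 3343 and 3452 in PANC-1 and 2589.8 and 2719 in PZT-2. This gave a smaller difference, -0.36 (edgeR adjusted p = 0.00573), where the lower quartile of all genes tested was -0.27. Normalized counts are counts per effective library size, rescaled to an average library. All 6 epithelial and ductal markers had counts and their summed level, in transcripts counted per length and library size (TPM), went from 7248 and 7403 in the PANC-1 libraries to 4058 and 3969 TPM in those of PZT-2, with KRT8, KRT18, KRT19 and CDH1 lower. Of the leukocyte markers CD14 and LYZ had counts, with sums of 0.488 and 0.694 TPM in PANC-1 and 1.74 and 2.75 TPM in PZT-2, and PTPRC and CD3E had no value. CD14 was higher in PZT-2 (adjusted p = 0.0234), with 3 and 0 counts in PANC-1 and 16 and 32 in PZT-2. Of 4 endothelial markers only PECAM1 had counts, at no more than 0.236 TPM. Of 5 fibroblast and stellate markers COL1A1 and PDGFRB had counts, with sums of 10.7 and 11.9 TPM in PANC-1 and 4.19 and 3.33 TPM in PZT-2, and none of the 3 acinar and 3 islet markers had a value. The part of these marker differences in the results was not tested. In bulk RNA, fewer cells of a kind and less RNA per cell cannot be told apart.

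The set split in direction. HBEGF, EREG and FGFR1 were higher in PZT-2, EGFR, ERBB2, AXL and TGFA were lower, and MET, AREG and ERBB3 did not pass the test. The 7 genes called make 70.0% of the 10, against 28.4% of all 15101 genes tested, called where the Benjamini-Hochberg adjusted p over all genes was under 0.05 in the quasi-likelihood test of edgeR. The 3 genes called higher stand against 14.7% of all genes, and the 4 called lower against 13.7%. The libraries of the lines did not overlap for these 7 genes and overlapped for the other 3, and of all genes 33.3% had both PZT-2 libraries above and 32.9% below those of PANC-1, 66.3% together. The median log2FC of the 10 genes was -0.08, against 0.0012 for all genes tested. For 1 gene in these libraries an exact permutation test (two-sided) gives at best p = 0.333, so the calls rest on the fit across all genes.

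EGFR, the receptor of all 4 ligands, fell by 1.42-fold. Its normalized counts were 3857 and 3885 in the PANC-1 libraries and 2898 and 2569 in those of PZT-2. Both PZT-2 libraries thus lay below both PANC-1 libraries and the log2FC was -0.50 (standard error, SE, 0.0704, 95% interval -0.67 to -0.33, adjusted p = 0.00364). ERBB2, the partner receptor with no known soluble ligand of its own, showed the larger fold, with 631 and 501 normalized counts in PANC-1 and 322 and 247 in PZT-2. Its log2FC was -0.99 (SE 0.163, 95% interval -1.38 to -0.60, adjusted p = 0.00637). ERBB3, a neuregulin receptor whose kinase domain is nearly inactive, was thinly expressed, with 16.9 and 14.5 normalized counts in PANC-1 and 21.1 and 15.8 in PZT-2. The groups overlapped, and the 95% interval of its log2FC ran from -0.69 to 1.18 (adjusted p = 0.693). Differences within that range were not excluded at this depth.

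Among the other receptors, AXL, which binds GAS6 and is linked to mesenchymal traits and drug resistance, was the most abundant gene of the set in both lines. It had 10877 and 10174.5 normalized counts in PANC-1 and 8294 and 8093 in PZT-2, both PZT-2 libraries lying below both of PANC-1. The log2FC was -0.36 (SE 0.0523, adjusted p = 0.00406), and without PZT-2 replicate 2 the adjusted p was 0.0506. FGFR1, a receptor of fibroblast growth factors, had 941 and 915 normalized counts in PANC-1 and 1267 and 1275 in PZT-2, so the libraries of each line lay close together and those of PZT-2 were higher. Its log2FC was 0.45 (SE 0.0610, adjusted p = 0.00312). MET, the receptor of hepatocyte growth factor, had 2716 and 2989 normalized counts in PANC-1 and 2835 and 2709 in PZT-2, values that crossed between the lines. Its 95% interval was the narrowest of the genes not called, from -0.20 to 0.12 around a log2FC of -0.04 (adjusted p = 0.689).

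Of the ligands, HBEGF, the heparin-binding ligand, nearly doubled. It had 426 and 333 normalized counts in PANC-1 and 684 and 813 in PZT-2, every PZT-2 library above every PANC-1 library, with a log2FC of 0.99 (SE 0.141, 95% interval 0.65 to 1.33, adjusted p = 0.00387). EREG, which encodes epiregulin, a low-affinity ligand of EGFR and ERBB4, had 180.0 and 186 normalized counts in PANC-1 and 267 and 321 in PZT-2. Its log2FC was 0.68 (SE 0.129, 95% interval 0.37 to 0.99, adjusted p = 0.0102), and without PZT-2 replicate 2, the higher library, it was 0.54 (adjusted p = 0.0746). TGFA, which encodes transforming growth factor alpha, had the largest fold of the set, 2.84-fold lower. It had 95.6 and 141 normalized counts in PANC-1 and 37.2 and 46.5 in PZT-2, with PANC-1 replicate 2 well above the other libraries, and a log2FC of -1.50 (SE 0.255, 95% interval -2.12 to -0.89, adjusted p = 0.00706). AREG, which encodes amphiregulin, had 67.5 and 50.6 normalized counts in PANC-1 and 43.3 and 65.3 in PZT-2. The values of the lines overlapped, and its 95% interval from -0.80 to 0.57 around a log2FC of -0.11 (adjusted p = 0.811) was wide and overlapped that of EREG. Whether AREG and EREG changed differently was not tested.

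**Figure D1:**
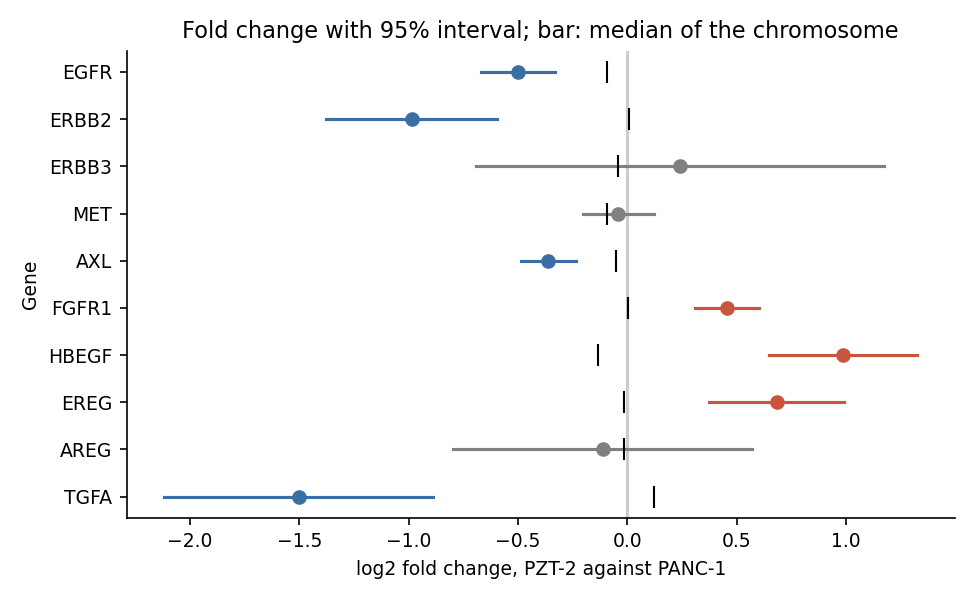
log2FC of PZT-2 against PANC-1 for each gene (horizontal axis) by gene (vertical axis), with points for the estimate, horizontal lines for the 95% interval and a vertical bar for the median of the other tested genes on the same chromosome. HBEGF, EREG and FGFR1 (red) lie right of 0, EGFR, ERBB2, AXL and TGFA (blue) lie left of it, and the grey intervals of ERBB3, MET and AREG cross it.

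Compared per length, the genes spanned a wide range. In PANC-1 the mean level was 288 TPM for AXL, 81.5 for EGFR, 57.3 for MET, 21.3 for HBEGF, 21.0 for FGFR1, 15.6 for ERBB2, 6.49 for AREG, 5.11 for EREG, 3.55 for TGFA and 0.351 for ERBB3. In that order all neighbours were separated by their libraries except HBEGF and FGFR1. Averaged over the 4 libraries, AXL stood above 95.9% of all tested genes in TPM, EGFR above 84.2%, TGFA above 24.8% and ERBB3 above 6.70%. In PZT-2 the level was 233 TPM for AXL, 60.1 for EGFR, 58.8 for MET, 43.6 for HBEGF, 29.7 for FGFR1, 8.52 for EREG, 8.16 for ERBB2, 6.21 for AREG, 1.30 for TGFA and 0.428 for ERBB3. EGFR and MET, separated in PANC-1, were no longer so in PZT-2. There ERBB2 was separated neither from EREG above it nor from AREG below it, whereas EREG lay above AREG in both libraries. HBEGF, level with FGFR1 in PANC-1, lay above it in both PZT-2 libraries.

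**Figure D2:**
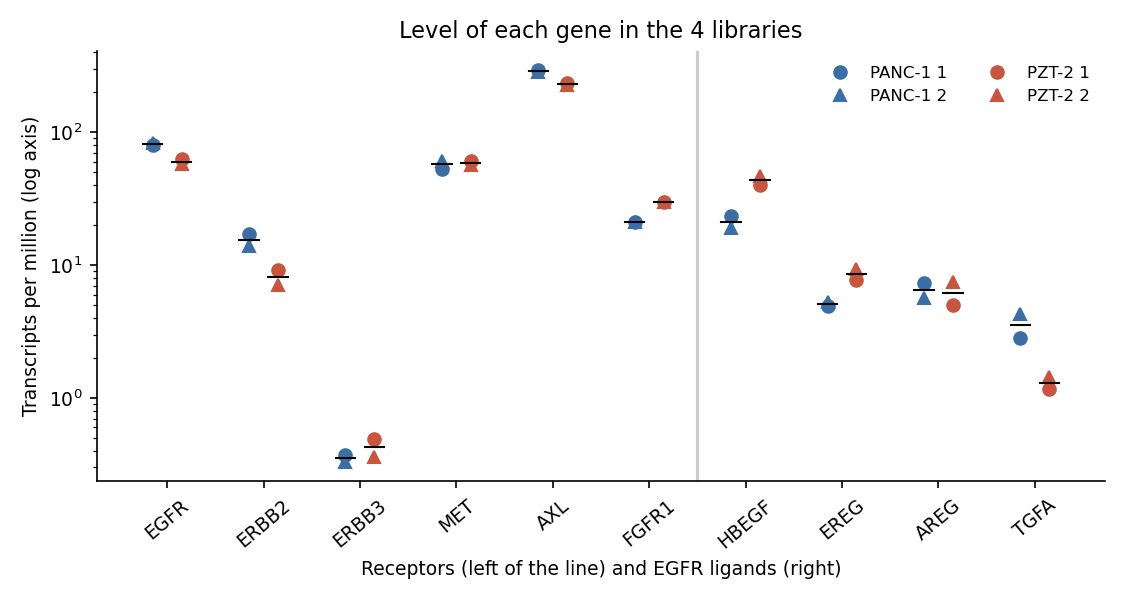
Level of each gene in TPM (vertical, log axis) in the 4 libraries, with circles for replicate 1, triangles for replicate 2 and black bars for the mean of each line. The genes span from 0.351 TPM for ERBB3 to 288 TPM for AXL in PANC-1, and the libraries of the lines overlap only for ERBB3, MET and AREG.

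The balance of ligand to receptor transcripts shifted with these changes. The 4 ligands summed to 36.4 ± 3.17 TPM (SD, n = 2) in PANC-1 and to 59.7 ± 8.17 TPM (SD, n = 2) in PZT-2, with 38.7 and 34.2 TPM in the libraries of the first and 53.9 and 65.5 TPM in those of the second. The 3 ERBB receptors summed to 97.6 and 97.2 TPM in PANC-1 and to 72.4 and 65.0 TPM in PZT-2. The ratio of summed ligand TPM to EGFR TPM was therefore 0.483 and 0.412 in the PANC-1 libraries and 0.860 and 1.14 in those of PZT-2. These sums and ratios follow from the genes already tested and carry no test of their own.

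Within the ligands, HBEGF held 61.0% and 55.5% of the summed TPM in PANC-1 and 74.2% and 72.2% in PZT-2. TGFA held 7.30% and 12.5% in PANC-1 and 2.16% and 2.20% in PZT-2, and AREG 18.9% and 16.6% against 9.22% and 11.4%. EREG kept close to its share, with 12.8% and 15.4% in PANC-1 and 14.4% and 14.2% in PZT-2. Among the ERBB receptors EGFR made up 82.1% and 85.2% of the TPM in PANC-1 and 86.5% and 88.6% in PZT-2, and ERBB2 17.6% and 14.4% against 12.8% and 10.9%. The 6 receptors together went from 463 ± 1.94 TPM (SD, n = 2) to 390.0 ± 12.8 TPM (SD, n = 2), and FGFR1 took 4.51% and 4.57% of that sum in PANC-1 and 7.44% and 7.81% in PZT-2. AXL held more than any other receptor in every library, between 59.3% and 63.0%.

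**Figure D3:**
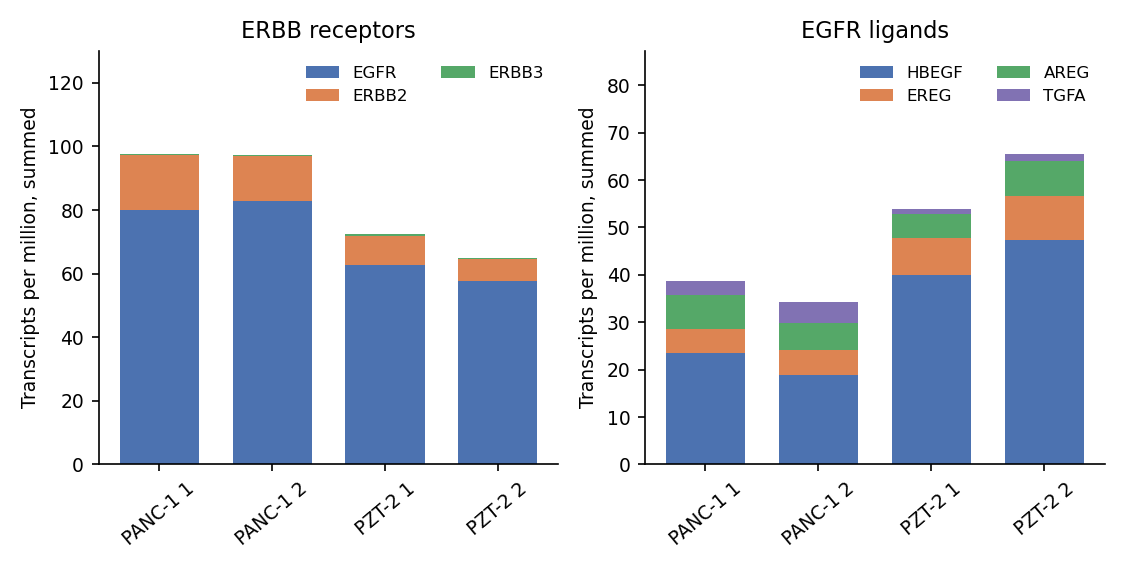
Summed TPM (vertical axis) of the 3 ERBB receptors (left) and the 4 EGFR ligands (right) in each library (horizontal axis), stacked by gene. The receptor sum is between 97.2 and 97.6 TPM in PANC-1 and between 65.0 and 72.4 TPM in PZT-2, and the ligand sum is between 34.2 and 38.7 TPM in PANC-1 and between 53.9 and 65.5 TPM in PZT-2, with HBEGF as its widest layer.

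How kallisto divided the reads among the transcripts of a gene bears on each single transcript and not on the sum. Of the 28 transcripts 27 could be tested, and none was called by edgeR, which called 0.148% of all 30403 transcripts tested. Of the 27, 8 had an unadjusted p below 0.05, against 18.5% of all transcripts, and DESeq2 called 8, against 14.8% of all. The 8 called by DESeq2 include both main EGFR transcripts, NM_005228 and NM_001346941, the main ERBB2 transcript NM_004448, AXL NM_001699 and the single transcripts of EREG and HBEGF.

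EGFR kept its make-up, since NM_005228 took 78.4% and 81.0% of the counts of the gene in PANC-1 and 80.4% and 80.8% in PZT-2. MET was alike, with NM_000245 at 84.1% and 79.6% in PANC-1 and 76.6% and 79.6% in PZT-2. In AXL, NM_001699 took 58.0% and 58.8% of the counts in PANC-1 and 46.6% and 52.4% in PZT-2. Its normalized counts were 6309 and 6014 in PANC-1 and 3860 and 4228 in PZT-2 (log2FC -0.61, 95% interval -0.80 to -0.42, edgeR adjusted p = 0.0737). NM_021913, the AXL transcript of 4750 bases against 4723 for NM_001699, had 4455 and 4044 in PANC-1 and 4145 and 3715 in PZT-2 (log2FC -0.11, 95% interval -0.36 to 0.14, edgeR adjusted p = 0.649). The intervals of the transcripts do not overlap, but the difference between them was not tested.

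For several FGFR1 transcripts the counts followed the replicate number in both lines. NM_023105, of 5650 bases, had 412 and 687 counts in replicate 1 of PANC-1 and PZT-2 and 113 and 317 in replicate 2, whereas NM_023106, of 5644 bases, had 16 and 18 counts in replicate 1 and 502 and 589 in replicate 2. NM_001354368 likewise had 252 and 233 counts in replicate 1 and 59 and 86 in replicate 2, and NM_001174063 had 15 and 16 against 141 and 140. Not all did so. NM_015850 had 137 and 124 counts in PANC-1 and 290 and 100 in PZT-2. NM_001354370 had 4 and 41 counts in PANC-1 and none in PZT-2, and NM_001174067 none in PANC-1 and 15 and 23 in PZT-2. The sum over the gene did not show the division by replicate number. TGFA had all 156 counts of PANC-1 replicate 2 in NM_001099691 and all 47 of PZT-2 replicate 2 in NM_003236, transcripts of 4323 and 4326 bases, and shared them in the other libraries. With the most abundant transcript alone, FGFR1 and TGFA were no longer called (adjusted p = 0.521 and 0.235). The ERBB2 transcript NR_110535, a non-coding one, had 32 and 55 counts in PANC-1 and 0 in both PZT-2 libraries.

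**Figure D4:**
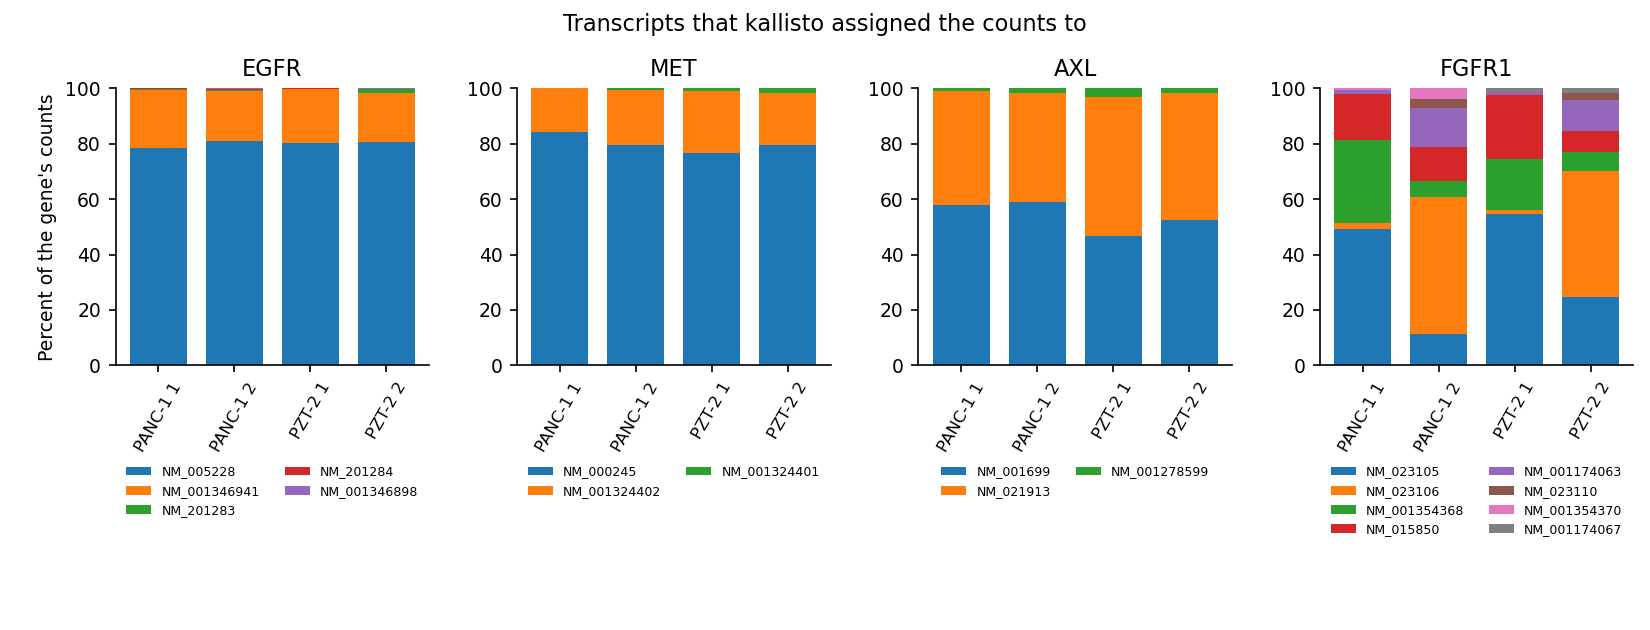
Percent of the counts of EGFR, MET, AXL and FGFR1 (vertical axis) given to each RefSeq transcript in the 4 libraries (horizontal axis). EGFR NM_005228 stays between 78.4% and 81.0%, AXL NM_001699 is at 46.6% and 52.4% in PZT-2 against 58.0% and 58.8% in PANC-1, and FGFR1 NM_023106 is at 49.6% and 45.7% in the replicates numbered 2 and at 1.9% and 1.4% in those numbered 1.

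Genes that surround the receptors were counted by lists. Of 137 listed genes 92 were tested, and 28 were higher and 10 lower in PZT-2, 41.3% in all against 28.4% of all genes tested. The list medians ran from 0.10 to 0.24, against 0.0012 for all genes. Among proteins that release the EGFR ligands from the cell surface, 4 of 10 tested were higher, against 14.7% of all genes, and none was lower. ADAM17, the main protease that cuts HBEGF, AREG, EREG and TGFA, had 833 and 780 normalized counts in PANC-1 and 1812 and 1936 in PZT-2 (log2FC 1.22, SE 0.0701, adjusted p = 0.000226). RHBDF2, which encodes iRhom2, the carrier of ADAM17 to the surface, was at 0.65 (adjusted p = 0.00107), and RHBDL2, a rhomboid protease, at 0.80 (adjusted p = 0.0115, but 0.0908 without PZT-2 replicate 2, 0.0575 with DESeq2 and 0.0579 for its most abundant transcript). The fourth was ADAM10, at 0.37. ADAM17 lies on chromosome 2, where the median log2FC was 0.12, and ADAM10 on chromosome 15, where it was 0.24.

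Of the other ERBB family members, NRG1, NRG2 and NRG4, which encode neuregulins, were tested and none was called, with log2FCs of 0.14, 0.15 and -0.18 (edgeR adjusted p = 0.323, 0.280 and 0.890). The receptor ERBB4 and the ligands EGF, BTC, EPGN and NRG3 had no value. Of the ligands of MET, AXL and FGFR1, 6 of 21 listed were tested, 1 higher and 1 lower, against 14.7% and 13.7% of all genes, and HGF, the ligand of MET, had no value. GAS6, the ligand of AXL, fell along with its receptor, from 593 and 554 normalized counts in PANC-1 to 259 and 250.2 in PZT-2 (log2FC -1.17, adjusted p = 0.000512). PROS1, the gene called higher, encodes protein S, which among its roles is a ligand of the AXL relatives TYRO3 and MERTK. It rose from 107 and 130 to 487 and 463 normalized counts (log2FC 1.99, adjusted p = 0.000259), on chromosome 3, where the median was 0.43. TYRO3 and MERTK, named after their values were seen, were higher by 0.30 and 0.37 (adjusted p = 0.0341 and 0.0261), TYRO3 on chromosome 15 and MERTK on chromosome 2. Each of these calls was lost with DESeq2 (adjusted p = 0.0862 and 0.109) and with the most abundant transcript alone (adjusted p = 0.0932 and 0.0842). Each was also lost without PZT-2 replicate 1 (log2FC 0.32 and 0.43) and without PZT-2 replicate 2 (0.28 and 0.30), and that of TYRO3 without PANC-1 replicate 1 (0.22).

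Among 29 tested receptor tyrosine kinases outside the set, 10 were higher and 7 lower, 58.6% in all against 28.4% of all genes. The largest differences were decreases of thinly expressed receptors. ROR2, a receptor of WNT5A, had 68.6 and 95.8 normalized counts in PANC-1 and 7.05 and 5.93 in PZT-2 (log2FC -3.64, adjusted p = 0.000941). RET, the receptor chain for GDNF-family ligands, had 201 and 183 in PANC-1 and 15.1 and 19.8 in PZT-2 (log2FC -3.45, adjusted p = 0.000231). NTRK2, the receptor of brain-derived neurotrophic factor, was at -2.94 (adjusted p = 0.00998, and 0.0566 without PZT-2 replicate 2). Those called higher with the largest folds were AATK, a lemur kinase, at 1.22, FGFR3 at 0.89 (not called without PZT-2 replicate 1, adjusted p = 0.0689) and RYK, a WNT receptor with an inactive kinase domain, at 0.68 on chromosome 3, where the median was 0.43. With the most abundant transcript alone AATK and FGFR3 were not called (adjusted p = 0.210 and 0.163). Of the other FGFR1 relatives, FGFR2, named after its value was seen, was at -1.80 (adjusted p = 0.0271, but 0.0840 with DESeq2). With the most abundant transcript alone FGFR2 was at -0.59 (adjusted p = 0.508), and limma-trend with a pseudocount of 0.1 gave an adjusted p of 0.0532. Its call was also lost with PANC-1 replicate 1 left out (log2FC -1.57) and with PZT-2 replicate 2 left out (-1.42). FGFR4 did not pass at 0.69 (adjusted p = 0.0703), and was at 1.00 without PANC-1 replicate 2.

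Inside the cell, 8 of 24 tested adaptors were higher and 1 lower, 37.5% in all against 28.4% of all genes. SHC2 was at 1.29, GAB2, a docking protein, at 1.17 and NCK1 at 0.62, and SOS2, an exchange factor for RAS, at -0.71. NCK1 lies on chromosome 3. Of 20 tested genes of receptor attenuation and sorting, 5 were higher and 1 lower, 30.0% in all and near the 28.4% of all genes. CBLB, a ubiquitin ligase for active receptors, was at 1.39 and also lies on chromosome 3. USP8, a deubiquitinase of endosomes, was at 0.45 on chromosome 15, where the median was 0.24. The receptor phosphatases PTPRJ and PTPRK were at 0.44 and -0.27. Without PZT-2 replicate 1 the adjusted p was 0.106 for SHC2, 0.0792 for CBLB, 0.0944 for USP8, 0.0519 for PTPRJ and 0.0905 for PTPRK, and without PZT-2 replicate 2 it was 0.120 for SHC2, 0.0505 for GAB2, 0.0986 for SOS2 and 0.203 for PTPRK. The calls of SHC2 and PTPRK were also lost without PANC-1 replicate 2 (adjusted p = 0.0606 and 0.0670) and with DESeq2 (adjusted p = 0.0722 and 0.0672). With the most abundant transcript alone the adjusted p was 0.108 for NCK1, 0.732 for USP8, 0.0711 for SOS2, 0.101 for SHC2 and 0.0515 for PTPRK. Limma-trend with a pseudocount of 1 or 0.1 gave 0.0537 and 0.0566 for SOS2 and 0.159 and 0.156 for PTPRK. With the replicate number as a block PTPRK was at 0.0640.

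**Figure D5:**
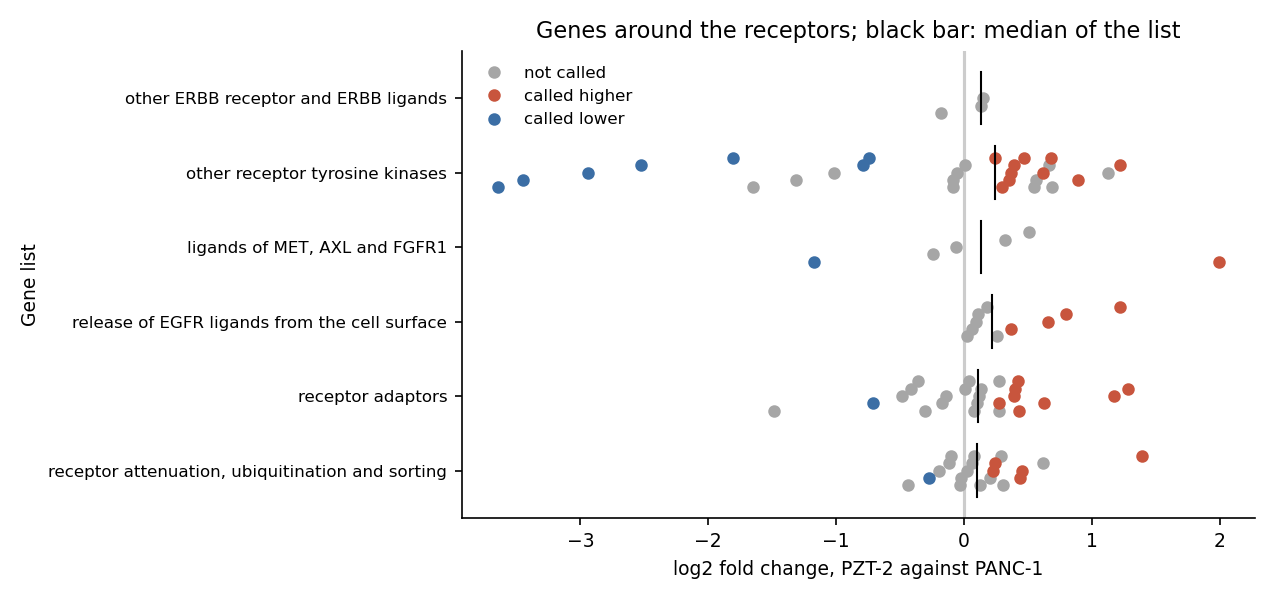
log2FC of PZT-2 against PANC-1 (horizontal axis) of each tested gene in 6 lists of genes around the receptors (vertical axis), in red where called higher, blue where called lower and grey where not called, with black bars for the medians. The release list has 4 red points and no blue one, and the points farthest left belong to receptor tyrosine kinases, down to -3.64 for ROR2.

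The genes next to each member gave a local background, placed for 99.3% of tested genes by their order in RefSeq on GRCh38.p14. EREG and AREG are adjacent on chromosome 4, so their nearest genes overlap and are not separate observations. Of the 10 nearest tested genes, 5 for EREG and 6 for AREG were higher in PZT-2, against 14.7% of all genes. EREG itself is among the 6 of AREG. In each case 1 was lower, against 13.7% of all genes, and the medians were 1.95 and 0.59. PARM1, on the other side of AREG, was at 4.62 (adjusted p = 0.000305), and MTHFD2L, on the other side of EREG, at -0.21 (adjusted p = 0.702). For HBEGF on chromosome 5 none of the 10 nearest tested genes was called, with PFDN1 at 0.05 and ANKHD1 at -0.18 on either side. ERBB2 on chromosome 17 lay between PGAP3 at 0.02 and MIEN1 at -0.09, neither of them called.

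TGFA on chromosome 2 lay between FAM136A, which was higher at 0.66 (adjusted p = 0.00217), and ATP6V1B1-AS1 at 0.40 (adjusted p = 0.458). AXL on chromosome 19 lay beside HNRNPUL1 at -0.45 (adjusted p = 0.00193) and CYP2S1 at 0.08. MET and EGFR share chromosome 7, where the median was -0.09. MET lay between CAV1, at -0.58 (adjusted p = 0.00166), and CAPZA2, at 0.04, and EGFR between SEC61G, at 0.10, and its antisense RNA EGFR-AS1, at -0.31 (adjusted p = 0.783). Whether kallisto was run with the strand of the reads is not given in the sources used here, so reads of EGFR and EGFR-AS1 cannot be told apart where they overlap. FGFR1 on chromosome 8 lay between LETM2, at -0.79 (adjusted p = 0.427), and TACC1, at 0.14, and ERBB3 on chromosome 12 between RPS26, at -0.03, and PA2G4, at -0.22 (adjusted p = 0.0256). The median of the 10 nearest tested genes was -0.21 for AXL, -0.25 for MET, 0.23 for FGFR1 and -0.09 for ERBB3. It was 0.0005 for EGFR, -0.02 for ERBB2, -0.21 for HBEGF and 0.16 for TGFA. Whether a gene followed its surroundings was not tested.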

How the data were processed

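Stranded mRNA libraries were sequenced as read pairs of 76 bases (NextSeq 500). Reads were trimmed by the authors with Trim Galore 0.4.1 and assigned to RefSeq transcripts by kallisto 0.43.0, and sleuth 0.29.0 was used to compare the lines. The submitters' processing notes name hg19. In the deposited table of estimated counts each library is multiplied by its own factor, between 0.935 and 1.16, which was undone by maximising the share of whole numbers. In genes with a single transcript, whole numbers (to within 0.01) then made up 41.1% to 42.2% of the values from 0.5 to 30, against 0.915% to 2.39% as deposited. Counts were rounded, and summed per gene. The table names 27049 of its 31077 transcripts, and 3925 more were named through their accession in RefSeq on GRCh38.p14. This added 2 transcripts each of EGFR and FGFR1 to the 24 found by symbol. TPM values were recomputed here from counts and the effective lengths the authors deposited. Columns of the authors' own comparison (effects, p and q values per transcript) were not used.

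Tests were run on genes that reached 5 counts in 2 libraries or more, by the quasi-likelihood test of edgeR 4.0.16 with TMM factors (R 4.3.3), with Benjamini-Hochberg adjustment over all genes and a threshold of 0.05. Errors after ± are SD over 2 libraries. The scripts were tested on simulated data. Members and lists were chosen with earlier results of these data known, so neither is independent of them. Named are the 10 genes, the called genes of each list with the largest absolute log2 fold change (up to 3 higher and 3 lower), H2AFZ, H2AFV and the nearest tested gene on either side of each member. ADAM10, TYRO3, MERTK, FGFR2, FGFR4 and the neuregulins were named in addition, after their values were seen. A leukocyte marker of the list is not reported here. Alternatives were RLE size factors, DESeq2 1.42.0, other filters, limma-trend (limma 3.58.1) of log2 TPM with a pseudocount of 1 or 0.1, the deposited values, edgeR version 4 dispersions, length-scaled counts, the most abundant transcript, the replicate number as a block and leaving out each library. The use of table symbols alone was added after seeing the data.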

Additional observations from a re-analysis of the deposited data

How the results depend on the processing

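The 7 called genes kept their direction under all 16 alternatives, and EGFR, ERBB2 and HBEGF were called in each of them. With the most abundant transcript alone, 2 genes were called higher and 3 lower, FGFR1 (0.84) and TGFA (-2.86) having been lost, and without PZT-2 replicate 2 the same numbers, AXL and EREG having been lost. MET, which was not called, changed sign with limma-trend at a pseudocount of 1 or 0.1 (0.040 for both) and ran from -0.11 to 0.022 with each library left out, above 0 without PANC-1 replicate 2. AREG, not called either, ran from -0.44 to 0.15 with each library left out, and was above 0 without PANC-1 replicate 1 or PZT-2 replicate 1.

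Of the listed genes around the receptors, 14 to 30 were called higher and 5 to 11 lower with each library left out, fewest higher (14) without PZT-2 replicate 1 and 15 and 5 without PZT-2 replicate 2. The most abundant transcript alone gave 10 higher and 6 lower, DESeq2 19 and 7, and limma-trend with a pseudocount of 0.1 gave 6 lower. Of member transcripts, 3 were called higher and 5 lower with DESeq2, 1 higher and 2 lower with at least 10 counts in all 4 libraries, and 0 in every other alternative, in which each library left out also gave 0.

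The labels number the libraries of each line. Deviations of same-numbered libraries correlated at -0.021 over 15101 genes, so gene sums as a whole showed no pairing by number. Several FGFR1 transcripts did follow the numbers. Whether same-numbered libraries were handled together was not tested, and this correlation cannot decide it. With the replicate block, 3 of the 10 genes were called higher and 4 lower, as without it, 25 and 9 of the listed genes, and 0 transcripts.

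Shares of the summed ligands depend on length correction. By counts HBEGF held 51.1% in PANC-1 and 65.8% in PZT-2, TGFA 16.1% and 3.67%, AREG 7.95% and 4.72% and EREG 24.8% and 25.8%, so that EREG came before AREG in PANC-1 and not after it. Depth limits ERBB3, with 15 to 21 counts per library, and AREG, with 43 to 66.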
